A study of Mus musculus with 16 samples.

Results

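Spermatocytes and spermatogonia isolated from male mice lacking miR-202 were compared by RNA sequencing, to ask which parts of the change of gene programme between these cell types were present without this microRNA. The 5 libraries compared, of 16 in the series, were the 3 of knockout spermatocytes and the 2 of knockout spermatogonia. Genes entered when their level reached 1 FPKM (fragments scaled to transcript length and to the mapped total of the library) in at least 2 of these 5 libraries, which held for 13204 of 22293 genes. The spermatogonia came from KO pups of 6 to 7 days after birth and the spermatocytes from adult KO mice. The same cell types from WT mice, 2 libraries of spermatogonia and 3 of spermatocytes at the same ages, were read beside them. All animals were male and of the strain given as C57;ICR, and the labels give neither the deleted allele nor how the cells were sorted. Age, preparation and cell type changed together between the groups, so they cannot be told apart. The labels call the libraries biological replicates.

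Spermatogonia are the mitotic germ cells of the testis, and retinoic acid drives their differentiation and their entry into meiosis. Spermatocytes replicate their DNA once more, pair their chromosomes along the synaptonemal complex, recombine them, and silence the unpaired X and Y chromosomes while they prepare transcripts for the later divisions and for spermatids. MicroRNAs bind transcripts through the seed near their 5′ end and lower their stability or translation. The Mir202 hairpin yields 2 mature strands, shown with the seed (bases 2 to 8) in capitals, from RefSeq on GRCm38.p6, both on the minus strand of chromosome 7.
miR-202-3p: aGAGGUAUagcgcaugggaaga
miR-202-5p: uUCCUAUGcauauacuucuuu
The 3p strand lies at chr7:139957695-139957716 and the 5p strand at chr7:139957732-139957752. Mir202 was listed at 0 in all 16 libraries, and so were 589 of 590 microRNA precursor symbols in the 5 knockout libraries, so the genotype could not be checked from these values.

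The 5 libraries separated by cell type. Pearson correlations across genes on the log2(FPKM + 1) scale were 0.993 between the spermatogonial libraries, at least 0.990 among the spermatocyte libraries and 0.588 to 0.626 between the groups. Low values placed the depth of the other knockout libraries between 0.714 and 1.06 times that of spermatocyte replicate 1, with spermatogonial replicate 2 the lowest. Of 7 spermatocyte markers tested, 6 were called higher in the spermatocytes. Ldhc, the lactate dehydrogenase of germ cells, stood at 4.08 and 9.17 FPKM in the spermatogonia and at 3369, 3110.0 and 3131 FPKM in the spermatocytes. The spermatogonial libraries also held somatic transcripts. The summed level of 9 Sertoli cell markers was 1349 and 1609 FPKM there against 16.6, 19.04 and 97.2 FPKM in the spermatocytes, where replicate 3 was highest. The summed level of 7 Leydig cell markers, tested or not, was 203 and 208 FPKM in the spermatogonia and 12.8, 92.95 and 113 FPKM in the spermatocytes. No defining Sertoli marker was at 0 in the spermatogonia, and the part of these cells in the differences below was not tested. In such bulk libraries fewer cells of a type and less RNA per cell cannot be told apart.

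A gene was called when its adjusted p was under 0.05 and its mean log2(FPKM + 1) differed by at least 1, that is 2-fold on this scale, which understates the change of genes near or below 1 FPKM. By this rule 3585 genes (27.2%) were higher and 5736 genes (43.4%) were lower in knockout spermatocytes. The change reached 16-fold for 761 genes called higher and 495 called lower, and 64-fold for 212 and 18. Genes called higher made up 11.02% and 10.8% of the summed FPKM of tested genes in the spermatogonial libraries and 69.0%, 66.6% and 67.5% in the spermatocyte libraries. Genes called lower made up 55.0% and 55.9% in the former and 6.04%, 7.70% and 7.29% in the latter. By adjusted p alone 4632 genes (35.1%) were higher and 7056 (53.4%) lower. Libraries of the 2 groups did not overlap for 4892 genes (37%) that were higher and 7332 (55.5%) that were lower. There were 590 genes under 1 FPKM in both spermatogonial libraries and at 10 FPKM or more in every spermatocyte library, and 596 with the reverse pattern. The balance of calls depended on the scaling. The median difference of all genes was -0.62 in the deposited values, -0.33 after quantile normalization and 0.05 after median-ratio scaling, and calls of higher genes were 38.5%, 45.1% and 52.1% of all calls. Under all 3 scalings 3418 genes (25.9%) were called higher and 4132 (31.3%) lower. Changes below are read against that median of -0.62, and counts of calls against the 27.2% higher and 43.4% lower of all genes.

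Genes of undifferentiated spermatogonia were low in knockout spermatocytes. Of 18 tested, 17 were called lower and 1 higher, against 43.4% and 27.2% of all genes, with a median difference of -3.68. Gfra1, the receptor for the niche factor GDNF, stood at 24.7 and 17.98 FPKM in the spermatogonia and 0.878, 1.31 and 0.690 FPKM in the spermatocytes, a log2 difference of -3.51 ± 0.22 (SE, adjusted p = 7.61e-10). The transcription factor Zbtb16 fell from 17.9 and 17.3 FPKM to 0.132, 0.338 and 0.211 FPKM. Both genes were apart in the 2 groups with no overlap. Ret, which signals with Gfra1, fell from 24.99 and 18.8 FPKM to 0.0829, 0.168 and 0.159 FPKM, and the zinc finger gene Sall4 from 28.4 and 22.2 FPKM to 0.109, 0.368 and 0.272 FPKM. Lin28a, a repressor of let-7 maturation, fell from 40.3 and 34.7 FPKM to 0.132, 0.421 and 0.429 FPKM, and Etv5, a GDNF-responsive transcription factor, from 25.6 and 19.04 FPKM to 0.314, 0.317 and 0.704 FPKM. Id4, an inhibitor of basic helix-loop-helix factors that marks spermatogonial stem cells, went the other way. It stood at 8.14 and 9.09 FPKM in the spermatogonia and 32.4, 44.4 and 39.1 FPKM in the spermatocytes, a log2 difference of 2.03 ± 0.22 (adjusted p = 3.39e-07), and the groups did not overlap. Another 6 genes of the list, among them Nanos2 and Pax7, were under the filter and were not tested.

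Genes of differentiating spermatogonia fell by a similar amount, with 10 of 11 called lower, against 43.4% of all genes, and a median of -4.10. Kit, the receptor that marks this stage, was at 29.9 and 26.8 FPKM in the spermatogonia and 0.348, 0.958 and 0.783 FPKM in the spermatocytes (-4.13 ± 0.22, adjusted p = 1.15e-10). Sohlh1, a transcription factor of differentiation, fell from 119 and 91.6 FPKM to 0.153, 0.917 and 1.08 FPKM, and Dmrt1, which holds back meiosis in spermatogonia, from 207 and 176 FPKM to 0.717, 2.43 and 2.63 FPKM. The exception was Dmrtb1, a relative of Dmrt1 also known as DMRT6. Its level was 26.8 and 26.5 FPKM in the spermatogonia and 509.8, 382 and 425 FPKM in the spermatocytes, a log2 difference of 3.98 ± 0.27 (adjusted p = 1.34e-09).

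**Figure D1:**
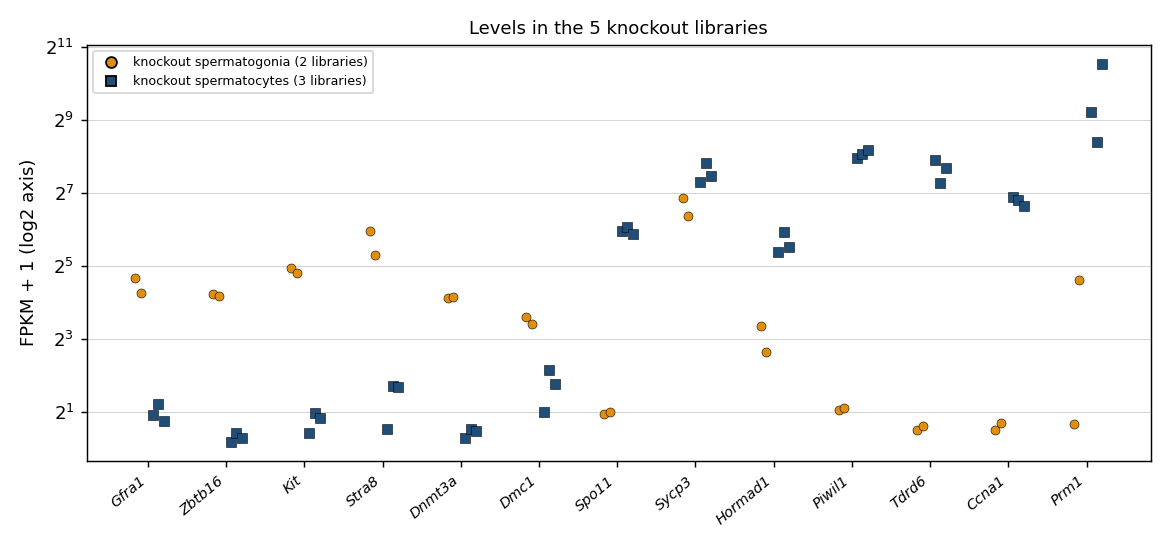
Levels of 13 genes in the 5 knockout libraries, as FPKM + 1 on a log2 axis; each point is 1 library. Markers of spermatogonia (left) were low in all 3 spermatocyte libraries, Spo11, Piwil1, Tdrd6 and Ccna1 were near 1 FPKM or below in both spermatogonial libraries, and Prm1 was uneven between libraries of 1 group.

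Genes of meiotic entry and of the retinoic acid pathway were divided, with 12 of 16 (75%) called lower and 3 (18.75%) called higher (median -2.14). The shares over all genes were 43.4% and 27.2%. Stra8, the retinoic acid target that starts the meiotic programme, stood at 60.8 and 38.7 FPKM in the spermatogonia and 0.439, 2.28 and 2.19 FPKM in the spermatocytes (-4.33 ± 0.50, adjusted p = 7.61e-07). Dazl, the RNA-binding protein that licenses germ cells for meiosis, fell from 235 and 178 FPKM to 15.04, 38.9 and 26.8 FPKM. The retinoic acid receptor genes Rara and Rarg were lower (-3.12 and -1.83). The genes called higher were Gm1564 (Meioc), whose protein keeps cells in the meiotic state, the RNA-binding protein gene Rbm46 and Aldh1a2. Meioc rose from 3.16 and 2.11 FPKM to 52.1, 50.6 and 51.7 FPKM (3.87 ± 0.16, adjusted p = 4.23e-12). Among enzymes that make retinoic acid, the groups of Aldh1a2 and Aldh1a1 were apart in opposite directions. Aldh1a2 stood at 21.5 and 20.2 FPKM in the spermatogonia and 86.2, 75.4 and 82.1 FPKM in the spermatocytes, and Aldh1a1, which Sertoli cells express, at 174 and 176 FPKM and 1.13, 3.38 and 7.08 FPKM. Ythdc2, the partner of Meioc, stood at 3.17 and 2.99 FPKM and 4.27, 6.43 and 5.36 FPKM and was not called because its log2 difference of 0.63 was under 1.

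Genes of cohesin, the ring that holds sister chromatids together, went in both directions. Of 21 subunit and regulator genes, 5 (23.8%) were called higher and 9 (42.9%) lower, shares near the 27.2% and 43.4% of all genes (median -0.78). The meiotic subunits Stag3 and Smc1b rose, Stag3 from 31.6 and 27.8 FPKM to 154, 139.9 and 151 FPKM (2.28 ± 0.16, adjusted p = 1.57e-09) and Smc1b from 23.3 and 17.02 FPKM to 45.9, 50.6 and 54.6 FPKM (1.29 ± 0.19, adjusted p = 9.57e-06). The mitotic subunit Rad21 fell from 131 and 112 FPKM to 4.85, 7.28 and 6.70 FPKM, and Smc3, the subunit common to both forms, from 59.9 and 53.1 FPKM to 2.92, 6.98 and 5.51 FPKM. Rec8, the meiotic counterpart of Rad21, stood at 6.21 and 5.60 FPKM in the spermatogonia and 3.68, 6.65 and 6.65 FPKM in the spermatocytes. Its groups overlapped, and its log2 difference of -0.09 ± 0.22 had adjusted p = 0.716 and a sign that depended on the scaling. The other genes called higher were the cohesin loader Nipbl (2.88), the securin gene Pttg1 (1.90) and the protector Sgol2 (1.18).

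The synaptonemal complex and axis genes had a median of 0.93, with 5 of 11 (45.5%) called higher and 3 (27.3%) lower. The shares over all genes were 27.2% and 43.4%, and a list of 11 genes measures such shares only roughly. Sycp2, an axis protein gene, rose from 5.97 and 5.39 FPKM to 85.6, 89.9 and 89.2 FPKM, and Syce1, a central element gene, from 25.4 and 20.8 FPKM to 309, 285 and 303 FPKM. The HORMA domain genes Hormad1 and Hormad2, whose proteins mark unpaired axes, rose as well, Hormad1 from 9.32 and 5.28 FPKM to 40.3, 59.8 and 44.9 FPKM and Hormad2 from 2.96 and 1.69 FPKM to 5.03, 8.997 and 6.14 FPKM. Sycp1, which forms the transverse filaments, stood at 22.9 and 18.9 FPKM in the spermatogonia and 37.7, 75.2 and 54.1 FPKM in the spermatocytes (1.32 ± 0.28, adjusted p = 4.33e-04). Sycp3, the axis gene used as a marker of meiotic cells, was already at 115 and 80.9 FPKM in the spermatogonia and at 157, 225 and 176 FPKM in the spermatocytes. Its groups did not overlap, and its log2 difference of 0.93 ± 0.31 (adjusted p = 0.012) stayed under the bound of 1. Without spermatogonial replicate 1 the difference of Sycp3 was 1.17 and without spermatocyte replicate 1 it was 1.04, both called, and without spermatogonial replicate 2 that of Hormad2 was 0.93 and not called. The genes called lower were Syce2, another central element gene, Trip13, which removes HORMAD proteins from paired axes, and Fkbp6. Syce2 fell from 90.6 and 84.05 FPKM to 19.6, 32.3 and 31.3 FPKM and Trip13 from 41.8 and 31.99 FPKM to 2.64, 4.34 and 3.498 FPKM. The call of Syce2 was lost under another scaling, while its direction held.

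The genes that make and repair meiotic double-strand breaks included 10 of 28 (35.7%) called higher and 11 (39.3%) lower, near the 27.2% and 43.4% of all genes. Their median of -0.12 turned to 0.19 and 0.55 under the other scalings. Spo11, which cuts the DNA, was at 0.933 and 0.985 FPKM in the spermatogonia and 60.6, 66.6 and 57.8 FPKM in the spermatocytes (4.997 ± 0.18, adjusted p = 1.35e-12). Its partners in break formation Mei4 and 2410076I21Rik (Rec114) were lower, Mei4 at 1.68 and 1.38 FPKM against 0, 0.161 and 0.0729 FPKM and Rec114 at 21.999 and 11.8 FPKM against 1.08, 1.22 and 0.475 FPKM. Break formation genes were thus apart in both directions between the groups. Dmc1, the meiotic strand-exchange recombinase, stood at 11.1 and 9.69 FPKM in the spermatogonia and 0.985, 3.43 and 2.42 FPKM in the spermatocytes (-1.87 ± 0.31, adjusted p = 3.58e-05). Psmc3ip (HOP2), which assists strand exchange, was higher, at 26.2 and 17.97 FPKM against 199.8, 159 and 211 FPKM. Genes of crossover intermediates that rose were Msh4 (1.76), Msh5 (1.41), Hfm1 (2.45) and Mlh3 (2.16). Of the signalling kinases, Atr, which acts on unpaired chromosomes, rose from 10.2 and 9.71 FPKM to 89.2, 74.6 and 89.9 FPKM, and Atm fell from 5.19 and 5.31 FPKM to 0.420, 0.714 and 0.730 FPKM. Prdm9, which positions the breaks, was under the filter, at 1.02 and 0.536 FPKM and 0.183, 0.512 and 0.463 FPKM.

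**Figure D2:**
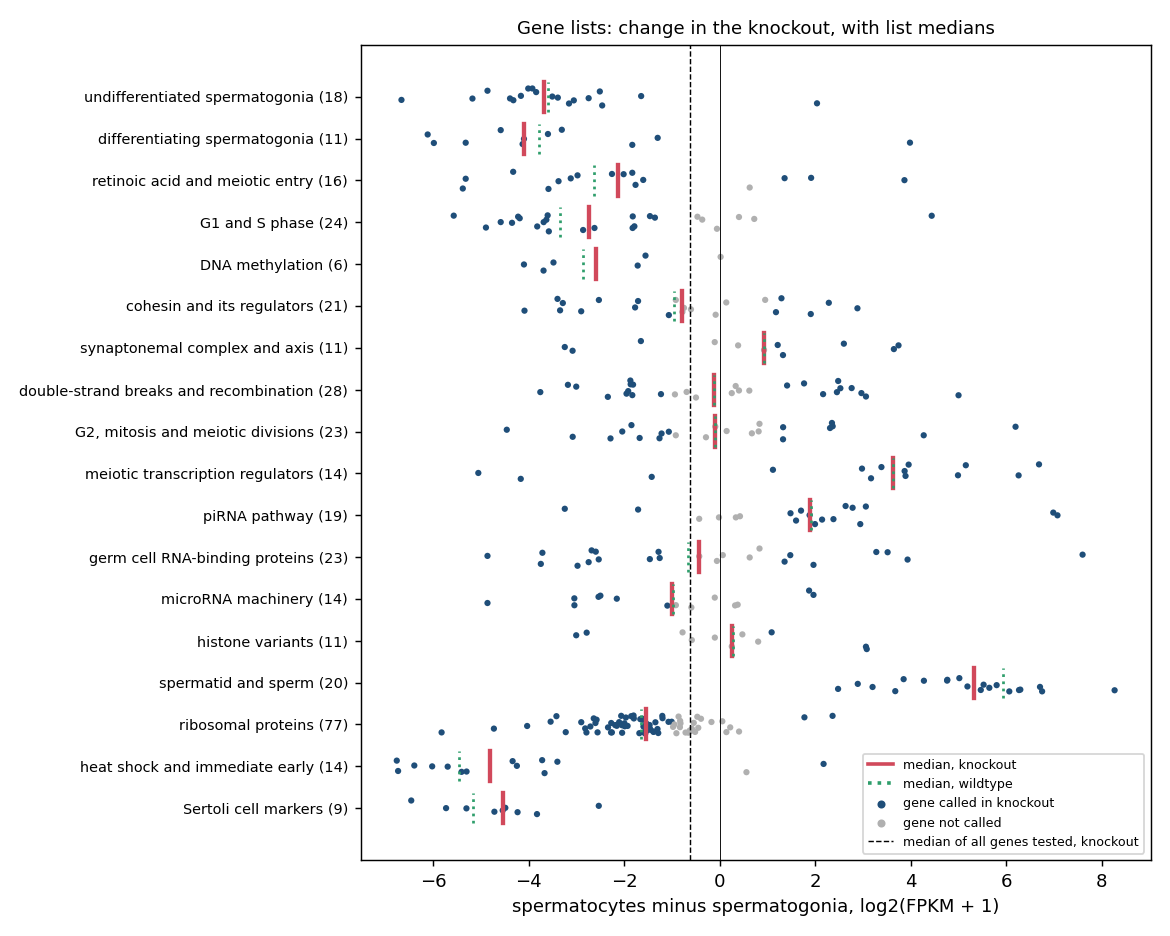
Difference between knockout spermatocytes and knockout spermatogonia, on the log2(FPKM + 1) scale, for the tested members of 18 gene lists; the number tested is in parentheses, blue points were called, and the dashed line is the median of all genes, -0.62. The red bars (knockout medians) and green dotted bars (wildtype medians) lie close to each other in most lists, and lists such as recombination hold called genes on both sides.

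Transcription regulators of meiosis and of the later germ cell programme rose, with 11 of 14 called higher, all 11 under every scaling, and 3 called lower (median 3.63). The shares over all genes were 27.2% higher, 25.9% under every scaling, and 43.4% lower. Mybl1 (A-MYB), the activator of pachytene genes, stood at 1.76 and 1.56 FPKM in the spermatogonia and 24.4, 19.7 and 24.8 FPKM in the spermatocytes (3.17 ± 0.20, adjusted p = 6.21e-10). Tcfl5, a helix-loop-helix factor of spermatocytes, rose from 26.4 and 19.5 FPKM to 256, 243 and 240.3 FPKM. Rfx2, which drives ciliary and spermatid genes, rose from 0.781 and 1.04 FPKM to 152, 141 and 141 FPKM (6.25 ± 0.18, adjusted p = 6.78e-14). In these 3 genes every spermatocyte library was above both spermatogonial libraries. Gtf2a1l, a germ cell form of a general initiation factor, rose from 0.255 and 0.703 FPKM to 173, 142 and 135 FPKM. Zfp541, a chromatin factor of pachytene cells, rose from 1.80 and 1.60 FPKM to 94.3, 78.7 and 81.1 FPKM, and Sox30, a regulator of haploid genes, from 1.59 and 1.01 FPKM to 31.4, 37.3 and 34.5 FPKM. Crem, whose activator form drives spermatid genes, rose from 2.55 and 2.52 FPKM to 48.8, 52.5 and 50.6 FPKM. The other genes called higher were Dmrtc2 (5.15), Fhl5 (3.89), Tbpl1 (2.98) and Ovol1 (1.11). The 3 called lower were the X-linked genes Taf7l (-5.05) and Scml2 (-4.17) and the bromodomain gene Brwd1 (-1.43); the call of Brwd1 was lost under another scaling.

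The piRNA pathway, which makes the small RNAs that guide PIWI proteins, had 13 of 19 genes called higher and 2 lower (median 1.88). The shares over all genes were 27.2% and 43.4%. Piwil1 (MIWI), the PIWI protein of pachytene cells, was at 1.08 and 1.17 FPKM in the spermatogonia and 249, 267 and 287 FPKM in the spermatocytes (6.98 ± 0.23, adjusted p = 3.68e-13). Piwil2 (MILI), which acts earlier as well, stood at 49.3 and 41.8 FPKM and 46.4, 67.3 and 61.03 FPKM, with overlapping groups and no call. The 6 Tdrd genes tested, whose proteins carry Tudor domains, were called higher, from Tdrd12 (1.70) to Tdrd6, which stood at 0.415 and 0.519 FPKM in the spermatogonia and 237, 153 and 207 FPKM in the spermatocytes. Mael, a protein of the germ cell granules, rose from 142 and 101 FPKM to 829, 854 and 807 FPKM, and the helicase gene Ddx4 (VASA), a marker of germ cells, from 81.5 and 66.9 FPKM to 219.7, 233 and 223 FPKM. The remaining genes called higher were Gtsf1 (2.63), Rnf17 (2.14), Pld6 (1.99) and Exd1 (1.48). The genes called lower were the co-chaperone gene Fkbp6, at 193 and 165 FPKM and 11.1, 27.3 and 18.6 FPKM, and Pnldc1, whose enzyme trims piRNA ends, at 19.8 and 20.03 FPKM and 4.79, 6.21 and 5.24 FPKM. Piwil4, the fetal PIWI protein gene, was listed at 0 in every spermatocyte library and at 1.43 and 0.593 FPKM in the spermatogonia. The RefSeq window of 300 bases around the start of Piwil1, 250 before it and 50 after, at chr5:128735996-128736295 on the plus strand of GRCm38.p6, is shown because this gene was near 1 FPKM in both spermatogonial libraries and above 200 FPKM in every spermatocyte library. Its capitals mark CAGTTG, a core word bound by MYB proteins.
Piwil1 promoter: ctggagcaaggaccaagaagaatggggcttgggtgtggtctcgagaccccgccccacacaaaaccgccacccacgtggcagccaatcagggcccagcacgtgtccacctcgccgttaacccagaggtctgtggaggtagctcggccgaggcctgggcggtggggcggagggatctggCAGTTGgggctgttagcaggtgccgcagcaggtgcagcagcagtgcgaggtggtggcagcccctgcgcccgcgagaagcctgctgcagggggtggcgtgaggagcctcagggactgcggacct
The word was searched on both strands and occurred in 13.7% of 32851 such windows, so the match is a description only.

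Among 23 germ cell RNA-binding protein genes, 7 (30.4%) were called higher and 11 (47.8%) lower, near the shares over all genes. The median of -0.43 changed sign under median-ratio scaling (0.35). Ybx2 (MSY2), which stores transcripts for later translation, stood at 6.72 and 9.57 FPKM in the spermatogonia and 1788, 1716 and 1727 FPKM in the spermatocytes (7.59 ± 0.18, adjusted p = 1.29e-14). The helicase gene Ddx25 and the DAZ family gene Boll rose by 3.93 and 3.51. The Boll and Dazl groups were apart in opposite directions, 8.69 and 7.42 FPKM against 112, 84.1 and 112 FPKM for Boll and the values above for Dazl. Other germ cell genes called lower were Dnd1 (-3.75), Nanos3 (-2.75) and Igf2bp1 (-3.71), while Igf2bp3, of the same family as Igf2bp1, was called higher (1.48).

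Genes of G1 and S phase fell, with 18 of 24 called lower and 1 higher (median -2.74), against 43.4% and 27.2% of all genes. Ccnd1 and Ccnd2, the D-type cyclins of mitotic cells, were lower (-3.69 and -4.59), and Ccnd2 stood at 33.1 and 30.8 FPKM in the spermatogonia and 0.310, 0.329 and 0.484 FPKM in the spermatocytes. Of 6 genes of the MCM2-7 replicative helicase, 5 were called lower. Mcm2 fell from 108 and 89.9 FPKM to 0.632, 1.16 and 1.61 FPKM, while Mcm7 stood at 72.4 and 55.98 FPKM and 47.6, 47.97 and 51.8 FPKM and was not called. Myc and Mycn were lower (-3.63 and -4.22), and Cdt1, which licenses replication origins, fell from 52.7 and 44.3 FPKM to 0.466, 0.930 and 0.606 FPKM. The gene called higher was Cdkn2c, an inhibitor of CDK4 and CDK6, which rose from 3.93 and 3.68 FPKM to 110.0, 98.1 and 101 FPKM (4.44 ± 0.22, adjusted p = 3.24e-11). Pcna, the replication clamp, stood at 61.95 and 48.3 FPKM and 53.5, 48.1 and 56.04 FPKM with overlapping groups.

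Genes of G2 and of the divisions included 7 of 23 (30.4%) called higher and 9 (39.1%) lower, near the 27.2% and 43.4% of all genes, with a median of -0.09 that became 0.66 under median-ratio scaling. Ccna1, the cyclin needed for the first meiotic division, stood at 0.417 and 0.618 FPKM in the spermatogonia and 118, 112 and 99.9 FPKM in the spermatocytes (6.19 ± 0.18, adjusted p = 7.12e-14). Its mitotic relative Ccna2 fell from 55.98 and 41.2 FPKM to 0.686, 1.81 and 1.34 FPKM. The B-type cyclin genes were apart in opposite directions, Ccnb1 at -2.04 and Ccnb2 at 1.32, the call of Ccnb2 being lost under another scaling. The kinase genes Aurka, Aurkc, Nek2 and Ttk were called higher, as was Fbxo43 (EMI2), an inhibitor of the anaphase-promoting complex, at 0.106 and 0.0395 FPKM against 24.5, 16.5 and 18.8 FPKM. Cdk1, the kinase of both divisions, stood at 10.3 and 7.72 FPKM and 16.04, 18.9 and 15.2 FPKM and was not called (0.83 ± 0.18, adjusted p = 6.01e-04); without spermatogonial replicate 1 it was (1.02).

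DNA methylation genes fell, with 5 of 6 called lower and 0 higher, against 43.4% and 27.2% of all genes. The de novo methyltransferase gene Dnmt3a stood at 16.3 and 16.6 FPKM in the spermatogonia and 0.228, 0.458 and 0.384 FPKM in the spermatocytes, and Dnmt3b at 35.7 and 29.3 FPKM and 0.856, 1.03 and 0.950 FPKM. The dioxygenase gene Tet3 fell from 11.2 and 12.1 FPKM to 0.0602, 0.171 and 0.174 FPKM. Uhrf1, which recruits the maintenance enzyme DNMT1, stood at 42.7 and 33.2 FPKM and 37.03, 39.1 and 38.2 FPKM with overlapping groups and no call. Of 11 histone variant genes, 3 (27.3%) were called higher and 2 (18.2%) lower, against 27.2% and 43.4% of all genes (median 0.25, and -0.11 after quantile normalization). Hist1h1t, the linker histone of spermatocytes, stood at 0 and 0.220 FPKM in the spermatogonia and 9.26, 8.86 and 6.98 FPKM in the spermatocytes, and the testis H2B gene Hist1h2ba at 0.700 and 5.05 FPKM and 23.2, 38.8 and 18.9 FPKM. The replacement linker histone gene H1f0 fell from 34.5 and 34.9 FPKM to 2.97, 3.93 and 3.49 FPKM. Transcripts of histone genes without poly(A) tails are captured by some library kits and not by others, and the labels do not say whether poly(A) RNA was selected.

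Of 77 ribosomal protein genes tested, 53 (68.8%) were called lower, 31 of them under every scaling, and 2 (2.60%) were called higher (median -1.55). The shares over all genes were 43.4%, 31.3% under every scaling, and 27.2%. The summed level of all 83 ribosomal protein genes, tested or not, was 16452 and 14530.0 FPKM in the spermatogonial libraries. In the spermatocyte libraries it was 5150.4, 5632 and 5537 FPKM. Both genes called higher, Rpl10l and Rpl39l, are autosomal copies of X-linked genes.

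Most X-linked genes fell in the spermatocytes. Of 505 X-linked genes tested, 424 (84.0%) were called lower and 52 (10.3%) higher, where single autosomes had 36.3% to 45.1% lower and 23.2% to 33.2% higher. The median difference was -2.39 for X-linked genes and -0.75 to -0.18 for the autosomes, and for X-linked genes -1.98 and -2.04 under the other scalings. The summed FPKM of the 941 X-linked genes was 7504 and 6773 in the spermatogonia and 368, 785 and 849 in the spermatocytes, lowest in replicate 1. All 5 Y-linked genes tested were called lower. Ddx3y, a helicase gene, stood at 13.8 and 14.3 FPKM in the spermatogonia and 0.182, 0.220 and 0.351 FPKM in the spermatocytes. In the spermatocyte libraries the X-linked genes called higher included Akap4, a protein of the sperm tail sheath, at 0.0580 and 1.61 FPKM in the spermatogonia and 38.2, 47.4 and 80.4 FPKM in the spermatocytes.

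**Figure D3:**
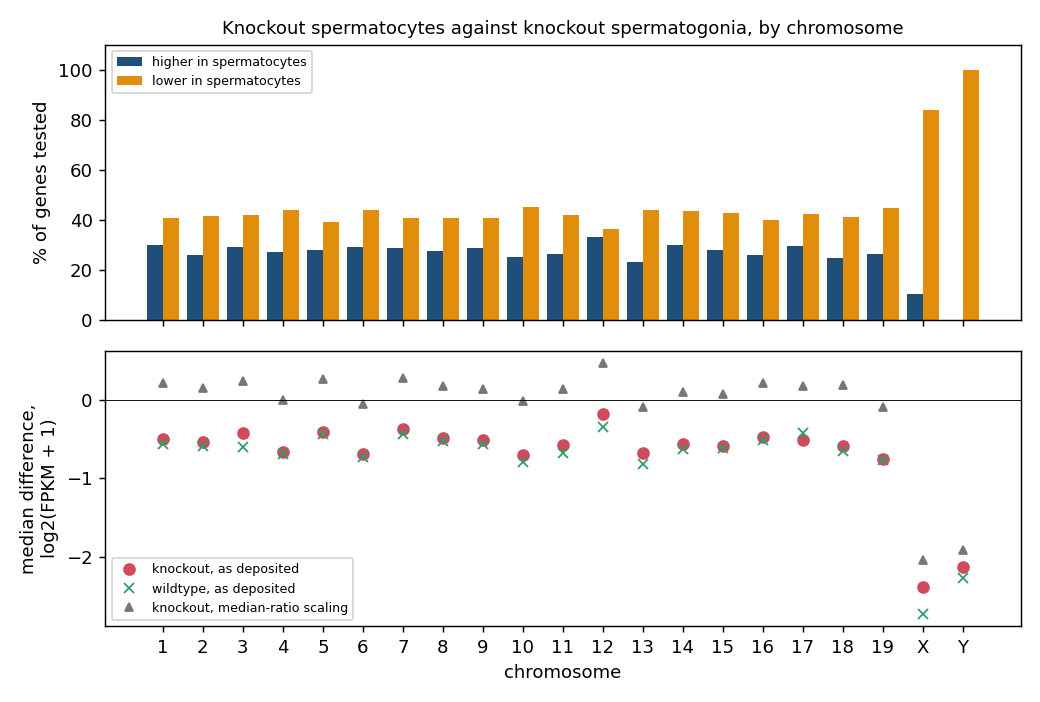
Upper panel, percent of tested genes called higher or lower in knockout spermatocytes on each chromosome; lower panel, median difference per chromosome on the log2(FPKM + 1) scale in the knockout, in the wildtype and in the knockout after median-ratio scaling. X and Y lie near -2 or below in all 3 series, away from the autosomes.

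Several X-linked housekeeping genes have an autosomal copy that is expressed in the male germ line. In 11 such pairs, the X-linked gene was called lower in 11, near the 84.0% of all X-linked genes tested. The autosomal copy was called higher in 8, against 27.2% of all genes. Pgk1, the X-linked phosphoglycerate kinase gene, fell from 5.16 and 6.07 FPKM to 0.0342, 0.399 and 0.263 FPKM, and its copy Pgk2 rose from 0.186 and 0.937 FPKM to 139.5, 156 and 144 FPKM. Pgk2 was 3.48 and 13.4% of the summed FPKM of the pair in the spermatogonia and 99.97, 99.7 and 99.8% in the spermatocytes. The copy of the pyruvate dehydrogenase gene, Pdha2, went from 24.4 and 24.9% of its pair to 99.96, 99.8 and 99.6%, and Cetn1, a centrin gene, from 5.33 and 8.57% to 99.99, 99.8 and 99.8%. Every spermatocyte library thus held mostly the autosomal member of these pairs. Utp14b, Cstf2t and Rbmxl2 were the copies that were not called. Rbmxl2 stood at 74.2 and 76.7 FPKM in the spermatogonia and 58.2, 82.7 and 70.5 FPKM in the spermatocytes, and Rbmx fell from 11.6 and 11.8 FPKM to 0.148, 0.416 and 0.215 FPKM. The share of Rbmxl2 in this pair was 86.5 and 86.6% and then 99.7, 99.5 and 99.7%. G6pd2, the copy of G6pdx, was listed at 0 in both spermatogonial libraries and at 1.15, 2.39 and 3.35 FPKM in the spermatocytes. Copies that are nearly identical in sequence, such as Rpl10 and Rpl10l, can exchange reads, which leaves their shares uncertain.

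In 15 further pairs of a somatic gene and its germ cell relative, the somatic gene was called lower in 13 and the relative higher in 11. The shares over all genes were 43.4% lower and 27.2% higher. Gapdh fell from 82.96 and 62.2 FPKM to 1.21, 2.16 and 3.30 FPKM and the sperm form Gapdhs rose from 0.140 and 2.35 FPKM to 63.6, 82.4 and 137 FPKM. Among mitochondrial genes, Cox8a stood at 487 and 387 FPKM in the spermatogonia and 7.43, 10.1 and 12.2 FPKM in the spermatocytes, and its relative Cox8c at 9.41 and 10.8 FPKM and 1602, 1391 and 1477 FPKM. The HSP70 gene Hspa2, whose product acts in the synaptonemal complex, made up 6.29 and 7.01% of its pair with Hspa8 in the spermatogonia and 98.6, 97.5 and 97.6% in the spermatocytes. The germ cell relative Taf7l was called lower. Slc25a31, the germ cell ADP/ATP carrier gene, stood at 91.9 and 68.7 FPKM and 34.5, 48.6 and 38.8 FPKM and was not called (-0.96), though it was without replicate 2 of the spermatogonia (-1.17) or of the spermatocytes (-1.10). Its share of the pair with Slc25a4 was 74.2 and 66.6% in the spermatogonia and 98.8, 98.4 and 89.97% in the spermatocytes.

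**Figure D4:**
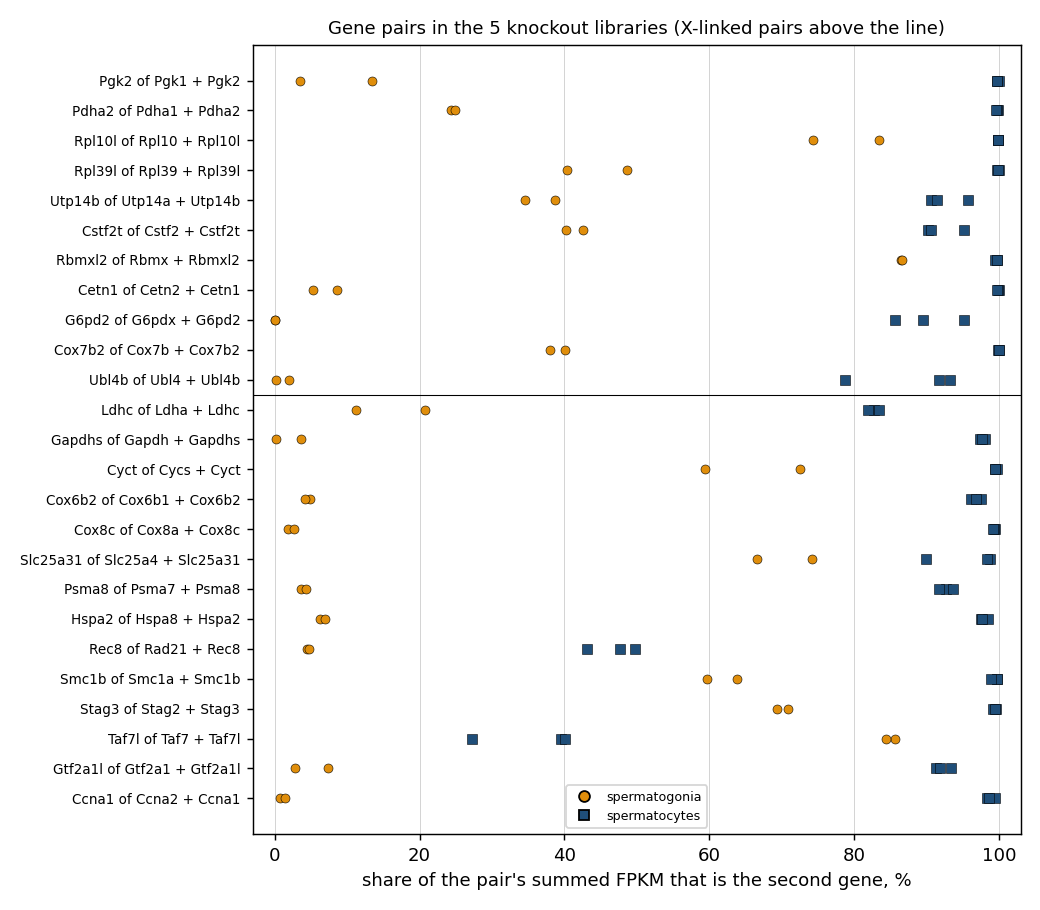
Share of the pair's summed FPKM held by the autosomal testis copy (above the line) or the germ cell relative (below it, 14 of the 15 pairs), in percent; each point is 1 knockout library. In the pairs with Pgk2, Cetn1, Cox8c and Ccna1 the share was under 15% in both spermatogonial libraries and above 98% in every spermatocyte library, while Taf7l fell.

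Lactate dehydrogenase was the pair in which both genes were called higher. Ldha, the somatic gene, stood at 32.4 and 35.2 FPKM in the spermatogonia and 704, 615 and 687 FPKM in the spermatocytes (4.26 ± 0.17, adjusted p = 3.16e-12). Ldhc rose by 8.80 ± 0.27 (adjusted p = 1.44e-13), from the values given above, and its share of the pair went from 11.2 and 20.7% to 82.7, 83.5 and 81.996%. In RefSeq these genes are neighbours on chromosome 7, with 0 protein-coding genes between them. Their windows of 300 bases around the start, both on the plus strand of GRCm38.p6, are shown because these neighbours moved together. Ldha lies at chr7:46845554-46845853 and Ldhc at chr7:46861013-46861312, and capitals mark TGACGTCA, the cAMP response element, which was found in the first and not in the second.
Ldha promoter: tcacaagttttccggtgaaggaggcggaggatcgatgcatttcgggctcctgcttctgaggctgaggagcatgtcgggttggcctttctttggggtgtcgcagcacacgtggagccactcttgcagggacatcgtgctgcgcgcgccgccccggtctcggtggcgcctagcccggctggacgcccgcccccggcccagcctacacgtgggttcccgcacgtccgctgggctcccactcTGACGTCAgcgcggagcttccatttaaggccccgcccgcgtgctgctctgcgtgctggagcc
Ldhc promoter: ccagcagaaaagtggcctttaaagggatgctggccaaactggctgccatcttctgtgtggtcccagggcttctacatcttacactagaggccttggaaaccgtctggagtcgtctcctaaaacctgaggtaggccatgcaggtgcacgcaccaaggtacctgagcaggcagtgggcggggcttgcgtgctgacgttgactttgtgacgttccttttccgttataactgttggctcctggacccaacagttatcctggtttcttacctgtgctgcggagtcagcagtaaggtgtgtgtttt
This element occurred in 1.79% of all windows. Only exact matches were searched here and for the words below, so variant sites in either window were not counted. The windows were also searched on both strands for CAGTTG and for GTTGCC, a word from the site of RFX factors that occurred in 12.5% of all windows and can share its GTTG with the former, and neither was found in either window.

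Transcripts of spermatids and sperm were higher in the spermatocyte libraries, with 20 of 20 called higher (median 5.32), against 27.2% of all genes. Their levels were uneven within groups. Prm1, the protamine that packs sperm DNA, was at 0.585 and 23.6 FPKM in the spermatogonia and 599, 335 and 1494 FPKM in the spermatocytes (6.75 ± 0.80, adjusted p = 9.98e-07). Spermatogonial replicate 2 and spermatocyte replicate 3 were the high libraries of their groups. The transition protein gene Tnp1 showed the same order, at 2.81 and 16.5 FPKM and 378, 279.5 and 873 FPKM. The acrosomal protease gene Acr was even, at 0.200 and 0.472 FPKM and 136, 136 and 141 FPKM. Without spermatogonial replicate 1 the median of the list was 4.56, and without replicate 2 it was 5.85. Pups of this age have no spermatids, and the source of these transcripts in the spermatogonial library was not tested.

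The genes that make and use microRNAs were lower for 7 of 14 (50%) and higher for 2 (14.3%), against 43.4% and 27.2% of all genes. Their median of -1.01 became -0.32 after quantile normalization and -0.50 after median-ratio scaling, where all genes had -0.33 and 0.05. Dicer1, which cuts the hairpins, stood at 15.5 and 13.2 FPKM in the spermatogonia and 0.401, 1.31 and 0.976 FPKM in the spermatocytes (-3.05 ± 0.19, adjusted p = 6.30e-10). Drosha, the nuclear enzyme of the pathway, fell from 59.5 and 48.9 FPKM to 6.71, 10.4 and 8.60 FPKM. Dgcr8, the partner of Drosha, stood at 15.5 and 13.1 FPKM and 8.35, 9.43 and 9.48 FPKM and was not called. The Argonaute gene Eif2c1 (Ago1) was lower (-2.50), and Eif2c4 (Ago4), which is known from meiotic cells, rose from 2.21 and 1.76 FPKM to 10.5, 8.63 and 10.6 FPKM. Tarbp2, which binds DICER1, rose from 17.5 and 14.1 FPKM to 64.03, 66.6 and 61.6 FPKM.

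Immediate early and heat shock genes were high in the spermatogonial libraries, with 12 of 14 called lower in the spermatocytes and 1 higher (median -4.82). Fos stood at 221 and 255 FPKM in the spermatogonia and 0.173, 1.499 and 2.61 FPKM in the spermatocytes, and Egr1 at 261 and 284 FPKM and 0.680, 1.78 and 2.62 FPKM. Such genes also respond to tissue dissociation, and the part of the isolation in these levels was not tested. Dnajb1, an HSP40 chaperone gene, was the member called higher (2.17). Markers of somatic cells were lower in the spermatocytes for all 9 Sertoli, 4 of 6 Leydig, 4 of 5 peritubular myoid, 6 of 6 fibroblast and 3 of 3 endothelial genes tested. Of all genes 43.4% were called lower. Under all 3 scalings 2 of the 5 myoid and 1 of the 3 endothelial genes were called lower, against 31.3% of all genes. The groups of the endothelial gene Cldn5 overlapped, and its difference was not called without spermatogonial replicate 2 (-0.86) or without spermatocyte replicate 1 (-0.60). The Leydig gene Insl3 stood at 112 and 117 FPKM in the spermatogonia and 10.9, 81.8 and 98.05 FPKM in the spermatocytes and was not called, spermatocyte replicate 1 being the low library; without replicate 2 or 3 of the spermatocytes it was called (-1.75 and -1.88). Of the macrophage markers, Cd68 was listed at 0 in every spermatocyte library, and Aif1 rose from 0.314 and 1.51 FPKM to 24.5, 30.3 and 41.9 FPKM while Csf1r stood at 0.118, 0.0782 and 0.198 FPKM there.

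By the size of the change, the 12 genes furthest up were Tcte3, Ldhc, Spata4, Pgam2, Cmtm2a, Crisp2, Fbp1, Ldhal6b, Zmynd10, Cmtm2b, Fhl4 and Pabpc2, with log2 differences from 7.94 to 9.64. Fbp1 and Pgam2 encode enzymes of sugar metabolism. Fbp1, fructose bisphosphatase, stood at 0.589 and 1.12 FPKM in the spermatogonia and 582, 513 and 554 FPKM in the spermatocytes (8.23 ± 0.15, adjusted p = 2.28e-15), and Pgam2, a phosphoglycerate mutase, at 0.599 and 2.55 FPKM and 825, 756 and 857 FPKM. This set and the one furthest down were taken from genes whose groups did not overlap, so their separation follows from the choice. Tcte3, a dynein light chain family gene with near-identical copies between which reads may be split, stood at 8.57 and 0.0506 FPKM and 2625, 2362 and 2584 FPKM. The 12 furthest down were Cyr61, Fos, Egr1, Sdc4, Amh, Cnn3, Junb, Bex2, Irf1, Tubb5, Hmgb3 and Uchl1, from -7.72 to -6.19. This set mixes the early response genes Cyr61, Fos, Egr1 and Junb, the Sertoli hormone gene Amh, the X-linked genes Bex2 and Hmgb3, and Uchl1, a marker of spermatogonia. Uchl1 stood at 688 and 594 FPKM in the spermatogonia and 4.47, 9.88 and 10.3 FPKM in the spermatocytes, and Amh at 121 and 163 FPKM and 0.187, 0.715 and 1.04 FPKM.

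The same comparison in wildtype cells called nearly as many genes. It ran over the 13204 genes that passed the filter in the 5 knockout libraries. Genes that passed it only in the wildtype, such as Myh11, could not enter, and the shares below leave them out. In wildtype cells 3591 genes (27.2%) were called higher and 5892 (44.6%) lower in spermatocytes, and by adjusted p alone 34.5% and 54.3%. Of the 2-fold calls, 94.7% of the higher and 93.2% of the lower genes were called the same way in the knockout, 0 were called the opposite way, and conversely 94.8% and 95.7% of the knockout calls were called in the wildtype. All 200 genes that rose most in the wildtype were called higher in the knockout, with a median of 6.75 against 7.07, and all 200 that fell most were called lower, with a median of -5.04 against -5.48. Of the latter 200, 14 fell by less in the knockout by the test of the difference between genotypes, and 0 of the former passed it. Over all genes 1.09% had a more positive change in the knockout by this test. Both sets of 200 were picked by the wildtype values that also enter this test. That choice favours a smaller change in the knockout, so these medians and counts do not measure an effect of the genotype. Of the genes called in the wildtype only, 191 higher and 402 lower, 177 and 358 moved the same way in the knockout with an adjusted p under 0.05, and 0 and 24 passed the test of the difference. In the wildtype 11 of 14 transcription regulators and 13 of 19 piRNA genes were called higher, as in the knockout, and the recombination genes had 10 higher and 12 lower. All 6 Leydig markers were called lower in the wildtype, against 4 in the knockout, 2 of 3 endothelial markers against 3, and 0 of 4 mast cell markers against 4. The mast cell markers passed the filter only through the knockout spermatogonia, where they were high, so their counts do not measure an effect of the genotype. The median of the G1 and S phase genes was -3.34 in the wildtype and -2.74 in the knockout, and that of X-linked genes -2.73 and -2.39. The 15 lists of germ cell and cell cycle genes held 246 different genes, of which 87 were called higher in the knockout (84 of them also in the wildtype) and 110 lower (107 also in the wildtype). The difference between the genotypes was tested as the change in the knockout minus the change in the wildtype. Of the 246 genes 1 passed this test, against 1.23% of all genes in either direction. Spo11 had a difference between genotypes of -0.62 ± 0.26 (SE, adjusted p = 0.333), Stra8 of -0.06 ± 0.71 (adjusted p = 0.986) and Dmc1 of 0.02 ± 0.44 (adjusted p = 0.993). The median SE over the 246 genes was 0.275. Differences several times that size did not all pass, as for Ybx2 (-1.05 ± 0.26, adjusted p = 0.0676) and Cdkn2c (1.15 ± 0.30, adjusted p = 0.0922). Differences of this size could therefore be present in other genes and not be called. Rec8 stood at 3.51 and 4.73 FPKM in the wildtype spermatogonia and 10.5, 9.19 and 7.39 FPKM in the wildtype spermatocytes, and its difference between genotypes of -1.06 ± 0.32 had adjusted p = 0.147.

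The gene of these lists that passed was Ovol1, a zinc finger repressor of meiotic germ cells. Ovol1 stood at 0.879 and 1.08 FPKM in wildtype and 2.92 and 2.73 FPKM in knockout spermatogonia. In spermatocytes it stood at 7.29, 6.98 and 7.40 FPKM in the wildtype and 7.03, 7.43 and 7.35 FPKM in the knockout. The rise of Ovol1 was smaller in the knockout, 1.11 against 2.05, by -0.94 ± 0.16 (adjusted p = 0.00931), and the genotypes were apart in the spermatogonia and overlapped in the spermatocytes.

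Over all genes, 144 (1.09%) had a more positive and 18 (0.136%) a more negative change in the knockout. Of the 144, 134 were called lower in wildtype spermatocytes, and in 144 of 144 the genotypes differed more in spermatogonia (median knockout minus wildtype of -1.33) than in spermatocytes (median 0.06). This scale compresses differences near or below 1 FPKM, where genes such as Pdlim3, Mfap4 and Tcf21 lay in every spermatocyte library. For such genes a small difference in spermatocytes does not show that the genotypes were alike there. The 8 largest were Acta2, Pdlim3, Mfap4, C1qtnf3, Bgn, Lamc3, Tcf21 and Rarres2. Acta2, the smooth muscle actin of peritubular myoid cells, stood at 86.98 and 127 FPKM in wildtype spermatogonia and 15.2 and 12.2 FPKM in knockout spermatogonia, and at 1.79, 2.13 and 2.18 FPKM and 0.763, 2.57 and 3.96 FPKM in spermatocytes. Tcf21, a transcription factor of stromal cells, stood at 19.1 and 28.5 FPKM and 4.002 and 6.08 FPKM in the spermatogonia. The heat shock genes Hspa1a and Hspa1b, near-identical neighbours, passed in the same direction, at 1.67 and 1.57 (adjusted p = 0.00303 and 0.00368). Of the stromal markers, 2 of 6 fibroblast and 2 of 5 myoid genes passed, Acta2 being a myoid marker. The summed level of all 7 fibroblast markers, tested or not, was 549 and 711 FPKM in wildtype and 178 and 193 FPKM in knockout spermatogonia. The sum of all 6 myoid markers, tested or not, was 128 and 178 FPKM in wildtype and 30.7 and 26.4 FPKM in knockout spermatogonia. It is mostly Acta2 in the wildtype. In the opposite direction, all 4 mast cell markers passed. Their summed level was 1.66 and 0 FPKM in wildtype and 12.6 and 18.8 FPKM in knockout spermatogonia, and under 1 FPKM in every spermatocyte library. They passed the filter only through the knockout spermatogonia, where they were high, so this count does not measure an effect of the genotype. Mcpt4, a mast cell protease gene, stood at 0.422 and 0 FPKM in wildtype and 4.66 and 8.38 FPKM in knockout spermatogonia and was listed at 0 in all 6 spermatocyte libraries. Of the other genes in that direction, Tbx1, a T-box transcription factor, stood at 1.62 and 3.13 FPKM in wildtype and 7.07 and 8.74 FPKM in knockout spermatogonia, and Hcn2, a pacemaker channel, at 2.88 and 4.29 FPKM and 7.94 and 8.42 FPKM. These counts depended on how low values were treated, with 4 and 6 genes in place of 144 and 18 at a pseudocount of 0.1, where Ovol1 did not pass. Acta2 did not pass under 10 of 17 alternatives. The part of stromal and mast cells in these differences was not tested.

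**Figure D5:**
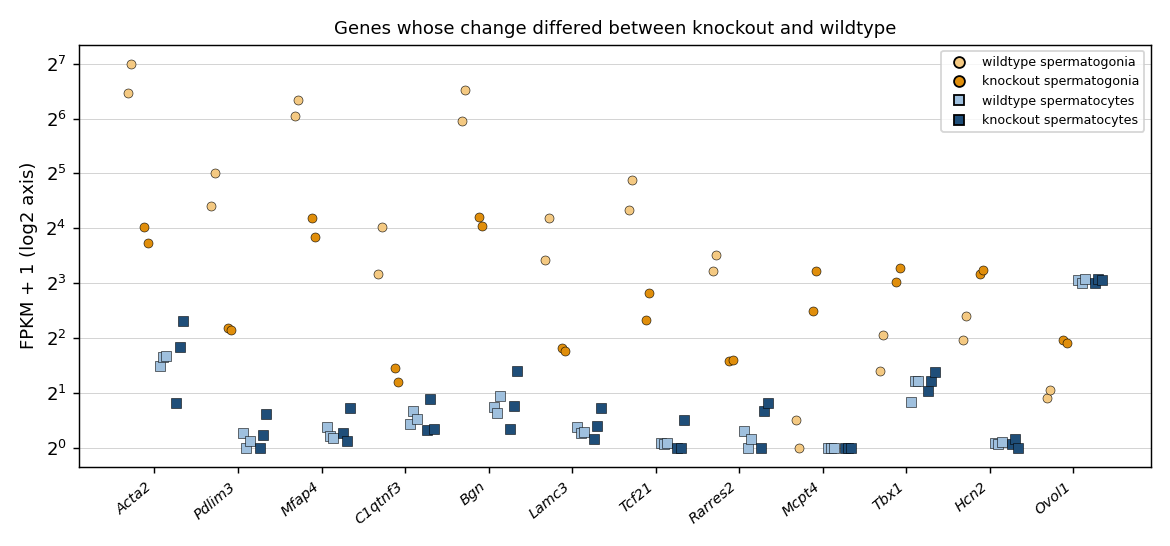
Levels, as FPKM + 1 on a log2 axis, of the 12 named genes whose change between cell types differed between knockout and wildtype; each point is 1 library. The genotypes are apart in spermatogonia (circles) and close in spermatocytes (squares) for the genes from Acta2 to Rarres2, which are lower in knockout spermatogonia, and for those from Mcpt4 to Ovol1, which are higher there. Differences near or below 1 FPKM are compressed on this axis.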

How the data were processed

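RNA was measured in 16 libraries, of which 5 were compared here and 5 wildtype libraries were read beside them. The authors deposited FPKM values, 1 per gene symbol and library. Per the submitters' processing notes, the tools were TopHat2 2.0.6 and Cufflinks 2.0.2, with mm9 as the genome build. Per the labels' protocols, libraries were made with a directional NEBNext kit and sequenced on a HiSeq-X10. Absolute sequencing depth is unknown, so no counting interval was computed. Each file held 23021 rows, and without the 728 rows of 259 repeated symbols 22293 genes remained. Another 25 symbols in the form of a date were kept and not named. Several genes of the lists, among them Meiosin, Syce3, Meiob and Rnf212, were not analysed here, and single results for some list members are not reported here.

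From these values, log2(FPKM + 1) was fitted with limma 3.58.1 (R 4.3.3, trend), with 1 mean per group over all 16 libraries, 14513 genes and 10 residual degrees of freedom, so that the other groups of the series also set the estimate of the spread. Benjamini-Hochberg adjustment of the two-sided p-values ran over the 13204 genes tested. A call needed an adjusted p under 0.05 and a log2 difference of at least 1, and for the difference between genotypes an adjusted p under 0.05 alone. Gene lists, pairs and tests were chosen with earlier results of these data known. Named genes were the 12 largest calls in each direction with a mean of at least 20 FPKM and no overlap, the first members of each list and those called against its majority, other list members, all pairs, and the 8 largest differences between genotypes in each direction with a mean of at least 5 FPKM, of which 4 existed in 1 direction. On simulated data 94 of 100 genes changed by 1.5 and 99 of 100 changed by 3 on the log2 scale were recovered in the comparison of cell types, and 82 and 95 for the difference between genotypes, with 4 false calls of 13004 each. The simulation made the means of both cell types equal apart from the planted genes. These were drawn only from genes with higher mean levels. In the data 35.1% of genes were higher and 53.4% lower by adjusted p alone. The rates therefore do not cover genes near 0 in a cell type. Relative depth was taken from the commonest ratio of low values between libraries. RefSeq windows matched 79.4% of the genes tested, under the 80% needed, so no share of motifs over called genes is given. Chromosomes and sequences come from RefSeq on GRCm38.p6, and no coordinates of the mm9 files were used. Figures were drawn with matplotlib 3.10.9. Alternatives were a pseudocount of 0.1, no filter and a stricter filter, quantile normalization, median-ratio scaling, a fit to only the groups compared, a replicate block, adjusted p alone and leaving out each library.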

Additional observations from a re-analysis of the deposited data

Results flagged for a closer look

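The results in question are differences between groups: the change from spermatogonia to spermatocytes differed between knockout and wildtype by limma's interaction test, for 144 genes toward a more positive and 18 toward a more negative change. At an unadjusted p under 0.05 there were 1638. On the log2(FPKM + 1) scale the difference was 2.91 for Acta2, 2.69 for Pdlim3, 2.29 for Mfap4, 2.25 for C1qtnf3, 2.19 for Bgn, 2.13 for Lamc3, 2.12 for Tcf21 and 2.11 for Rarres2. It was -2.61 for Mcpt4, -1.31 for Tbx1, -1.03 for Hcn2 and -0.94 for Ovol1. Mcpt4 was listed at 0 in all spermatocyte libraries, so its value is that of the spermatogonia. It passed the filter only through the knockout spermatogonia, where it was high. Mcpt4 passed under all 17 alternatives, Lamc3, Mfap4, Ovol1, Pdlim3 and Tcf21 under all but the pseudocount of 0.1, while Acta2 failed under 10, Bgn and C1qtnf3 under 7 each, Tbx1 under 6, Rarres2 under 5 and Hcn2 under 3. Groups of 2 and 3 libraries are too small for a test of single outlying libraries.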

How the results depend on the processing

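The calls of knockout spermatocytes against knockout spermatogonia stayed within 1.5 times of 3585 higher and 5736 lower genes under every alternative run; leaving out a library gave 3477 to 3707 higher and 5559 to 5884 lower. Of 357 listed or named genes, 292 stayed on the same side of the threshold throughout and 0 reversed; 21 lost their call under median-ratio scaling and 20 under quantile normalization. Leaving out a library ended the calls of Cldn5, Esx1, Esco1, Hormad2, Cpeb1, Cdc25a, Lin28b and Tpm2, each under at least 1 omission. The counts of genes that differed between genotypes were unstable. The 144 and 18 became 4 and 6 with a pseudocount of 0.1, 344 and 53 with no filter, 283 and 53 with only the groups compared, and the 18 became 51 under quantile normalization. Leaving out a library gave 57 to 188 and 10 to 36. The 144 became 68 and 57 without knockout spermatogonia replicate 1 and 2, 78 without wildtype spermatogonia replicate 2, 67, 77 and 86 without wildtype spermatocyte replicate 1, 2 and 3, and 89 without knockout spermatocyte replicate 3. The 18 became 36 and 11 without knockout spermatogonia replicate 1 and 2, 10 without wildtype spermatogonia replicate 1 and 33 without knockout spermatocyte replicate 2. The cause was not tested. Of wildtype calls, the 94.7% of higher and 93.2% of lower genes also called in the knockout became 93.8% and 88.3% with no filter, 93.7% and 91.7% under quantile normalization, 95.4% and 91.1% under median-ratio scaling, 96.5% and 95.8% by adjusted p alone, and 94.8% of lower genes with a pseudocount of 0.1. Leaving out a library gave 92.6% to 96.0% and 91.1% to 94.0%. The setting with no filter still needed a value above 0 in a knockout library, so genes seen only in the wildtype could not enter. Replicate numbers are shared by pups and adults and pair nothing by the labels; deviations of same-numbered knockout libraries correlated at 0.014 and -0.133. With the number as a replicate block, 3556 genes were higher and 5807 lower, and 122 and 17 differed between genotypes. Depth was not given, so low genes carry an error that these values cannot state.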
